A study of Homo sapiens with 4 samples.

Results

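The 10 genes described here encode fibronectin, proteins tied to it and matricellular proteins, and they were taken by gene name from a list of FN1, ECM1, SPARC, SPP1, TGFBI, TNC, THBS1, THBS2, EFEMP1 and FBN1. All 10 were found among the 58735 genes of the deposited files, and all 10 had a mean FPKM (fragments scaled by gene length and library size) of at least 1 over the libraries, as did 12949 genes in all. RNA-seq had been performed on U251 and U87, established human glioblastoma (GBM) cell lines, as a Control (DMSO alone in the cell assays of the study), and after treatment with brusatol (Bru), a plant quassinoid known for blocking protein synthesis and for lowering the NRF2 protein. Bru treatment lasted 48 h at the IC50, details that the labels do not give. Each of the 4 conditions had 1 library, so that no difference between libraries has a replicate check, and a difference in response between the lines cannot be told apart from a difference between their Bru doses.

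Fibronectin is a large adhesive glycoprotein that cells assemble into fibrils through integrin α5β1, and these fibrils serve as a scaffold for other matrix proteins. Matricellular proteins such as SPARC, osteopontin, tenascin-C and the thrombospondins are secreted into the matrix but act mainly on cell adhesion and signalling and little as structural parts. Fibrillin-1 and fibulin-3 belong to microfibrils and elastic fibres. Several of these genes are known as mesenchymal and invasion-related genes in glioblastoma.

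The reference sequence upstream of 3 genes is shown for FN1, which was lower with Bru in both lines by about the same factor, for ECM1, the gene on which the study centred, and for THBS1, which was abundant in U251 and nearly silent in U87. The sequences are RefSeq promoter sequences on GRCh38.p14 written 5′ to 3′ on the strand of the gene, from base -250 counted from the annotated start up to the first base annotated as an exon of a protein-coding gene. Capitals mark matches on either strand to the searched letters. These were TATAAA of the TATA box, CCAAT of the CCAAT box, GGGCGG of the GC box and TGACGTCA of the cyclic AMP response element. CATTCC of TEAD sites and TGANTCA were also searched, the latter a loose form of the AP-1 site in which N is any base. The stretches lie at chr2:215436173-215436318 on the minus strand for FN1, at chr1:150507859-150508061 on the plus strand for ECM1 and at chr15:39580829-39581078 on the plus strand for THBS1.
FN1: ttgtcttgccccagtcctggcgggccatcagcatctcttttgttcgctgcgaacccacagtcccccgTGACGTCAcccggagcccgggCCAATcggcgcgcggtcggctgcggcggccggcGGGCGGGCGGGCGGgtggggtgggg
ECM1: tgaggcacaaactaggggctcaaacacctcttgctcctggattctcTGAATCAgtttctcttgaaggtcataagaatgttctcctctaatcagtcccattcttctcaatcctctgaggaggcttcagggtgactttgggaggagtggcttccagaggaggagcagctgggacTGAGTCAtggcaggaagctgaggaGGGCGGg
THBS1: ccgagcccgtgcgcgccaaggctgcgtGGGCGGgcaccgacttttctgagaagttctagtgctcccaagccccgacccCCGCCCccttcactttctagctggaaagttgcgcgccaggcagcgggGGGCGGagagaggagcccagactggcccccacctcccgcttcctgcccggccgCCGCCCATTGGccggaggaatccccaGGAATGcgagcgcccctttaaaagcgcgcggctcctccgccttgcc

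FN1 held TGACGTCA at -183 and CCAAT at -162, followed by overlapping GGGCGG matches at -129, -125 and -121. Further GGGCGG matches of FN1, at -107, -102 and -49, lie across or beyond the end of the printed stretch. ECM1 held TGANTCA at -204, as TGAATCA, and at -78, as TGAGTCA, and GGGCGG at -54. Its TATAAA at -30 lies beyond the printed stretch. THBS1 held CATTCC at -46 and CCAAT at -66, both on the opposite strand, and 4 GGGCGG matches. Sequence was found for 9 of the 10 genes, all but EFEMP1, and over the 250 upstream bases TGACGTCA was present in 1 of the 9 and in 1.65% of 35116 promoters, TGANTCA in 1 and 6.57%, TATAAA in 2 and 10.7%, CCAAT in 2 and 32.0%, CATTCC in 4 and 11.9%, and GGGCGG in 5 and 42.6%. These matches describe letters of the reference and do not show binding.

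The libraries held between 17083896 and 21453561 reads on genes, where reads are fragments recovered from the FPKM. At this depth, a count of 3 reads, taken as the smallest that can be seen, corresponds to an FPKM of 0.143 to 0.172 for a gene of 1 kilobase. Of the marker genes checked, vimentin (VIM) had an FPKM of 606 to 701, leukocyte, endothelial and epithelial markers were each below an FPKM of 1 in the 4 libraries, and the glial marker GFAP was at 2.42 and 1.08 in U251 (Control, then Bru) and at 0.215 and 0.147 in U87. The neural progenitor markers SOX2 and NES, at 129 and 125 in U251 Control, were at 0 and 1.46 in U87 Control. S100B was at 0.296 in U251 Control and at 0 in the other libraries. VIM was on the same list of glial and progenitor markers, and U87 had little or none of the list apart from VIM. With Bru, NES was lower in both lines (log2 ratios of -1.30 and -1.23, in U87 from 147 and 55 reads). GFAP stood at -1.09 in U251 and -0.35 in U87, VIM at -0.21 and -0.08, and SOX2 at -0.50 in U251. The part of these markers in the results was not tested. Throughout, the log2 ratio is that of FPKM + 0.1, and the 95% interval is the exact interval of the ratio without that addition. The intervals cover counting error only and compare libraries, not conditions.

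The Control libraries of the lines were set side by side to show where these genes are expressed. Each gene's level is given as FPKM, which is per length. In U251 Control the order was SPARC (411), SPP1 (283), TGFBI (71.0), EFEMP1 (67.5), THBS1 (60.8), THBS2 (44.7), TNC (34.1), FN1 (15.7), ECM1 (5.11) and FBN1 (4.66). In U87 Control the order was SPP1 (104), TNC (81.5), SPARC (71.1), FN1 (51.3), TGFBI (34.9), FBN1 (14.7), ECM1 (6.47), EFEMP1 (4.04), THBS2 (1.03) and THBS1 (0.169). Neighbours in these orders differed beyond counting error in both lines, other than ECM1 and FBN1 in U251 Control (log2 interval of their ratio from -0.04 to 0.30). SPARC stood above 99.8% and SPP1 above 99.6% of protein-coding genes in U251 Control, while THBS1 stood above 96.8% of them there and above 37.4% in U87 Control.

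More than 2-fold differences between the Control libraries of the lines were found for 9 of the 10 genes. FN1 (log2 ratio of U87 to U251 1.70), FBN1 (1.63) and TNC (1.25) were higher in U87, as were 14.5% of the 12949 genes, and 6 members were lower in U87, as were 16.0% of all genes. THBS1 was lowest in U87 relative to U251, with a log2 ratio of -7.82 (interval without the pseudocount from -9.08 to -7.96), followed by THBS2 (-5.31), EFEMP1 (-4.03), SPARC (-2.53), SPP1 (-1.45) and TGFBI (-1.02). ECM1 was 0.34 higher in U87 on the log2 scale (interval from 0.13 to 0.55). When reads without mitochondrially encoded genes were used for scaling, 8 genes and not 9 were past 2-fold, since TGFBI came to -0.99. The plot of levels shows these differences together with the Bru libraries.

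**Figure D1:**
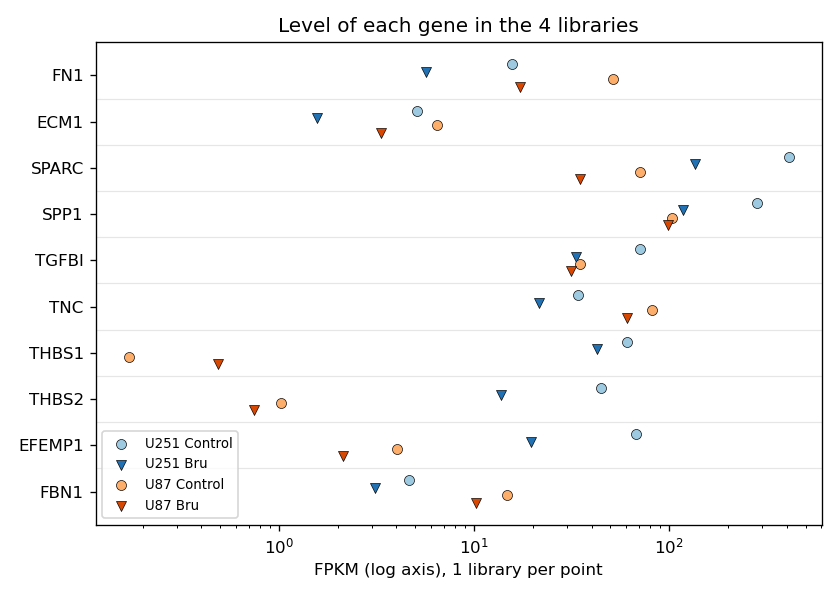
FPKM of the 10 genes (log axis) in the U251 Control, U251 Bru, U87 Control and U87 Bru libraries, 1 point per library. Each U251 Bru triangle lies left of its Control circle, and THBS1 in U87, at 0.169 and 0.489, is the pair in which the Bru library lies to the right.

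To see how the genes responded to Bru, the libraries of each line were compared. In U251, 7 of the 10 genes were more than 2-fold lower in the Bru library, as were 5.44% of all 12949 genes, and no member was more than 2-fold higher, as were 3.36% of all genes. The interval lay below 0 for 10 of the 10, against 35.9% of all genes. In U87, FN1 and SPARC were more than 2-fold lower, against 1.41% of all genes, and THBS1 was more than 2-fold higher, where 1.92% of all genes were. THBS1 had passed the minimum FPKM through U251, its 2-fold difference in U87 was lost with a pseudocount of 1 (log2 ratio 0.35), and nothing is read from that share. The interval lay below 0 for 9 of the 10 in U87, against 28.0% of all genes. Intervals narrow as reads increase, so an abundant gene is counted at a small shift, such as SPP1 at -0.07 in U87. The shares of all genes in either line are not matched for abundance. FN1 and SPARC were the 2 members past 2-fold in both lines, where 0.517% of all genes were lower by that much in both. The median log2 ratio of the 10 genes was -1.36 in U251 and -0.47 in U87, beside -0.03 and -0.04 for all genes. THBS1 and THBS2, which passed the minimum FPKM through U251, are included in the U87 median, and THBS2 is among the 9 of the 10. The list was chosen with earlier results of these libraries known, so these shares describe the genes and are not independent evidence.

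FN1 (ENSG00000115414, chromosome 2 from 215360440 to 215436172) encodes fibronectin. U251 held 15.7 FPKM without Bru and 5.66 FPKM with it (5694 and 1817 reads), and U87 held 51.3 and 17.1 FPKM (16050 and 5162 reads). Both Bru libraries were lower than their Controls, and the U87 Bru library still held slightly more FN1 than the U251 Control. The log2 ratio was -1.45 in U251 (interval from -1.55 to -1.39) and -1.58 in U87 (from -1.63 to -1.54). In U87 this was the lowest ratio of the 10 genes, and 0.533% of all 12949 genes had a lower one there, against 2.08% in U251.

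ECM1 (ENSG00000143369, chromosome 1 from 150508062 to 150513789) encodes a secreted glycoprotein that binds several matrix proteins, among them fibronectin and fibulins. Its FPKM went from 5.11 to 1.57 with Bru in U251 (from 360 to 98 reads) and from 6.47 to 3.33 in U87 (from 393 to 195 reads). These are the lowest FPKM among the 10 genes in the U251 Bru library and the lowest but one in the U251 Control. As a log2 ratio of Bru to Control this was -1.64 in U251 (interval from -2.04 to -1.37) and -0.94 in U87 (from -1.21 to -0.71), so the U87 value, like that of SPARC, lay at the 2-fold limit within counting error. With a pseudocount of 1 the ratio in U251 was -1.25. The difference of the ratios without pseudocount, U87 minus U251, was 0.74 with an interval from 0.34 to 1.15.

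SPARC (ENSG00000113140, chromosome 5 from 151661096 to 151687165) encodes osteonectin, a collagen-binding matricellular protein. Control and Bru libraries had 411 and 135 FPKM in U251 (41684 and 12122 reads) against 71.1 and 35.0 FPKM in U87 (6206 and 2942 reads). SPARC was the most abundant of the 10 genes in both U251 libraries, and the U251 Bru library still held more SPARC than either U87 library. Bru to Control, the log2 ratio came to -1.60 in U251 (interval from -1.63 to -1.57) and -1.02 in U87 (from -1.09 to -0.96), so the U87 value lay at the 2-fold limit within counting error. It came to -0.96 when the libraries were scaled to the same 75th percentile, short of 2-fold.

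SPP1 (ENSG00000118785, chromosome 4 from 87975650 to 87983426) encodes osteopontin, a ligand of CD44 and of αv integrins. U251 held 283 FPKM without Bru and 118 FPKM with it (13781 and 5086 reads), and U87 held 104 and 99.0 FPKM (4345 and 3998 reads). The U251 libraries were far apart and the U87 libraries close together. The log2 ratio was -1.26 in U251 (interval from -1.31 to -1.21) and -0.07 in U87 (from -0.13 to -0.004). The U87 interval held 0 once the FPKM were rescaled to a median log2 ratio of 0 (from -0.09 to 0.04), so whether SPP1 was lower in U87 depended on the scaling.

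TGFBI (ENSG00000120708, chromosome 5 from 136028895 to 136063818) encodes a fasciclin-domain protein that TGF-beta induces and that links collagens to integrins. Its FPKM went from 71.0 to 33.2 with Bru in U251 (from 11623 to 4801 reads) and from 34.9 to 31.4 in U87 (from 4927 to 4267 reads). U251 Bru thus came to the level of the U87 libraries. As a log2 ratio of Bru to Control this was -1.09 in U251 (interval from -1.15 to -1.05) and -0.15 in U87 (from -0.21 to -0.09), and 31.7% of all genes had a lower ratio in U87.

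TNC (ENSG00000041982, chromosome 9 from 115019578 to 115118257) encodes tenascin-C, which modulates the adhesion of cells to fibronectin. Control and Bru libraries had 34.1 and 21.4 FPKM in U251 (6898 and 3825 reads) against 81.5 and 61.1 FPKM in U87 (14189 and 10254 reads). Both U87 libraries exceeded both U251 libraries. Bru to Control, the log2 ratio came to -0.67 in U251 (interval from -0.73 to -0.62) and -0.41 in U87 (from -0.45 to -0.38), under 2-fold in both lines. Exons of DEC1 overlap TNC and those of CLMAT3 overlap SPARC, each on the opposite strand, with at most 14 and 16 reads in a library.

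THBS1 (ENSG00000137801, chromosome 15 from 39581079 to 39599466) encodes thrombospondin-1, a ligand of CD36 and CD47 and an activator of latent TGF-beta. U251 held 60.8 FPKM without Bru and 42.4 FPKM with it (11685 and 7204 reads), and U87 held 0.169 and 0.489 FPKM (28 and 78 reads). The U251 libraries were high and the U87 libraries low, and the Bru library was the higher one in U87 alone. The log2 ratio was -0.52 in U251 (interval from -0.56 to -0.48) and 1.13 in U87 (interval without the pseudocount from 0.89 to 2.21). Both U87 values are small, and with a pseudocount of 1 the U87 ratio was 0.35. An exon of FSIP1, on the opposite strand, overlaps THBS1, and the library kit named in the labels does not mark strand. FSIP1 itself was given 44 and 56 reads in the U87 libraries, and its part in the reads of THBS1 was not tested.

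THBS2 (ENSG00000186340, chromosome 6 from 169215780 to 169254044) encodes thrombospondin-2, a close relative of THBS1. Its FPKM went from 44.7 to 13.8 with Bru in U251 (from 6013 to 1639 reads) and from 1.03 to 0.744 in U87 (from 119 to 83 reads). Like THBS1 it was far lower in U87, but in U251 it was lower with Bru by a larger factor than THBS1. As a log2 ratio of Bru to Control this was -1.69 in U251 (interval from -1.78 to -1.62) and -0.42 in U87 (from -0.89 to -0.05 without the pseudocount). The ratio of THBS1 to THBS2, as FPKM, went from 1.36 to 3.08 in U251, and from 0.165 to 0.658 in U87. Both thrombospondins passed the minimum mean FPKM through their U251 libraries.

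EFEMP1 (ENSG00000115380, chromosome 2 from 55865967 to 55924139) encodes fibulin-3, a glycoprotein of elastic fibres and basement membranes. Control and Bru libraries had 67.5 and 19.7 FPKM in U251 (5609 and 1443 reads) against 4.04 and 2.12 FPKM in U87 (289 and 146 reads). Both U251 libraries exceeded both U87 libraries. Bru to Control, the log2 ratio came to -1.78 in U251 (interval from -1.86 to -1.70, which overlaps those of THBS2 and ECM1) and -0.90 in U87 (from -1.23 to -0.64 without the pseudocount). In U251, 1.17% of all genes had a lower ratio, and in U87 1.83% did.

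FBN1 (ENSG00000166147, chromosome 15 from 48408306 to 48645849) encodes fibrillin-1, the main component of microfibrils, which needs fibronectin fibrils for its own assembly. U251 held 4.66 FPKM without Bru and 3.10 FPKM with it (1568 and 924 reads), and U87 held 14.7 and 10.2 FPKM (4256 and 2858 reads). U87 held more FBN1 than U251 in either condition. The log2 ratio was -0.57 in U251 (interval from -0.70 to -0.47) and -0.52 in U87 (from -0.59 to -0.45), nearly the same in both lines.

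Summed over the 10 genes, FPKM went from 998 to 394 with Bru in U251 and from 369 to 261 in U87. The sum in the U251 Bru library was thus close to that of U87 Control. The ratio of Bru to Control of these sums was 0.395 in U251 and 0.706 in U87. SPARC and SPP1 made up 45.7% and 27.3% of the decrease in U251, while SPARC, FN1 and TNC made up 33.4%, 31.6% and 18.8% of the decrease in U87. SPP1 made up 28.1% of the sum in U87 Control and 38.0% in U87 Bru.

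Whether the lines responded differently was asked for each gene from the difference of its log2 ratios, U87 minus U251, without pseudocount. The ratio was higher in U87 than in U251 for 9 of the 10 genes, as it was, on FPKM + 0.1, for 49.1% of all genes. With a pseudocount of 1 it was higher for 8, since the difference of FBN1 came to -0.02. For 8 genes the interval of the difference lay above 0. The share of all genes with such an interval was not computed, so nothing is read from that count. The difference was 2.05 for THBS1 (interval from 1.43 to 2.68), 1.23 for THBS2 (from 0.82 to 1.64) and 1.19 for SPP1 (from 1.12 to 1.27). The value of THBS1 depended on the pseudocount, at 1.65 with 0.1 and 0.86 with 1, where THBS2 (1.41), SPP1 (1.19), EFEMP1 (1.04) and TGFBI (0.93) exceeded it. TGFBI (0.94), EFEMP1 (0.85), ECM1 (0.74), SPARC (0.58) and TNC (0.26) followed. FBN1 did not differ between the lines beyond counting error (0.06, interval from -0.07 to 0.20). FN1 was the gene with a lower ratio in U87, by 0.11 on the log2 scale (from -0.20 to -0.02). These intervals take no account of the variation between cultures, and the range that holds the middle 90% of such differences over all 12949 genes ran from -0.85 to 1.01 on FPKM + 0.1.

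**Figure D2:**
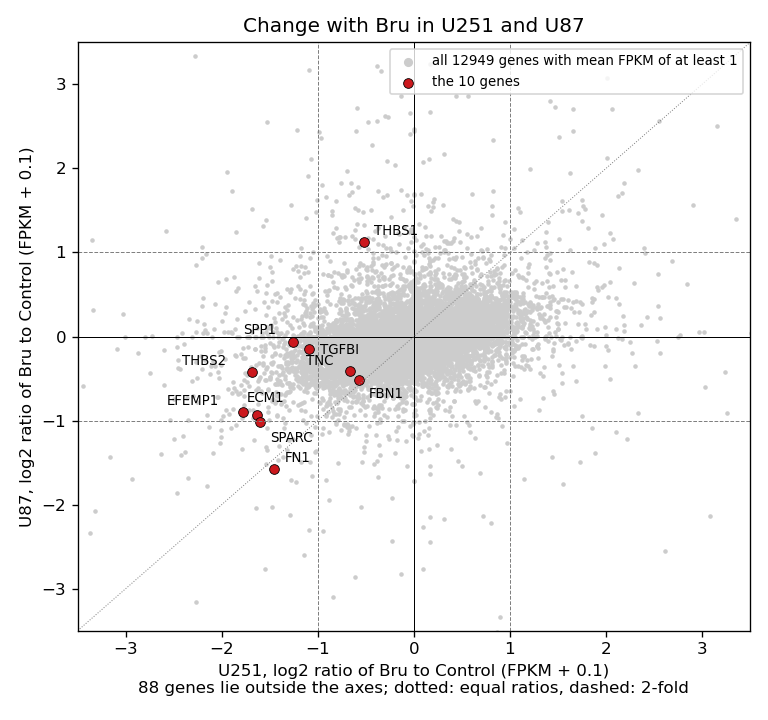
Bru to Control ratios (log2, FPKM + 0.1) in U251 (horizontal) and U87 (vertical) for the 12949 genes (grey) and the 10 genes (red), with 2-fold limits dashed and equal ratios dotted. FN1 lies near the line of equal ratios at -1.45 and -1.58, SPP1 and TGFBI lie past 2-fold in U251 and near 0 in U87, and THBS1 lies above 0 in U87.

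The relatives and receptors of these genes were read from lists of 60 genes, of which 28 had a mean FPKM of at least 1. Of the 28, 9 were more than 2-fold lower in U251 Bru and 1 was more than 2-fold higher, and none was past 2-fold in U87, against the shares of all genes given above. Their log2 ratios had a median of -0.78 for U251 and -0.28 for U87. These counts and medians include genes that passed the minimum through 1 line alone. SMOC1 and MFAP2 had at most 3 reads in a U251 library and FBLN1 had 4 in each U87 library, so those ratios rest on the pseudocount. ITGB3, TGM2 and LRP1, among the 9, passed through U87. The relatives were low for several families. The tenascins TNN, TNR and TNXB, the TGFBI relatives POSTN, STAB1 and STAB2 and the osteopontin relatives IBSP, DMP1, DSPP and MEPE were each below an FPKM of 1 in every library. TNC, TGFBI and SPP1 were the members of these families above that level. The osteopontin relatives had at most 3 reads in a library and the TGFBI relatives at most 19. TNXB had 28 and 46 reads in U251 (log2 interval from 0.19 to 1.63), and 24 and 19 in U87 (from -1.23 to 0.65).

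Among 12 fibronectin receptors and assembly genes, 9 passed the minimum. More than 2-fold lower in U251 Bru were 4 of them, against 5.44% of all genes. Of these 4, ITGB3 and TGM2 had passed the minimum through U87 and were at or below 1.46 FPKM in U251. Integrin β1 (ITGB1), the partner of integrin α5, went from 160 to 61.1 FPKM with Bru in U251 and from 127 to 85.9 in U87, log2 ratios of -1.39 and -0.56. ITGA5, the α5 subunit of the fibronectin receptor, had log2 ratios of -0.74 and -0.55, both short of 2-fold. For ITGB5 the ratios were -1.86 (U251) and -0.65 (U87), and for ITGB3 -1.40 (135 and 40 reads) and -0.07. TGM2, a transglutaminase that binds fibronectin, had a ratio of -1.21 in U251 from 98 and 29 reads, and of -0.11 in U87, where its FPKM was 44.3 and 41.0.

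Among 8 receptors of thrombospondins and osteopontin, which share 4 genes with the previous list, 6 passed the minimum. Of these, 3 were more than 2-fold lower in U251 (ITGB3, ITGB5 and LRP1), against 5.44% of all genes. ITGB3 and LRP1 had passed the minimum through U87, so nothing is read from that share. ITGB3 and ITGB5 are among those counted in both lists. CD44, the hyaluronan receptor that also binds osteopontin, was the most abundant, at 125 FPKM without and 94.5 with Bru in U251, and at 115 and 109 in U87. LRP1, an endocytic receptor for thrombospondins, had a ratio of -1.39 in U251, from FPKM of 2.05 and 0.722, and of -0.22 in U87, from 47.7 and 40.9. CD36 had at most 4 reads in any library.

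Of the relatives of SPARC, FSTL1 stood at log2 ratios of -1.26 (U251) and -0.42 (U87), and SMOC1, at 708 and 531 reads in U87, had 2 and 0 reads in U251. Of the fibulins, FBLN1 went from 14.7 to 5.09 FPKM in U251, a ratio of -1.51, and had 4 reads in each U87 library, and HMCN1 had ratios of -1.48 and -0.42. THBS3, the one thrombospondin relative with a mean FPKM of at least 1, had ratios of -0.05 and -0.20, and both intervals held 0. THBS4, below an FPKM of 1 in every library, had 30 and 44 reads in U251 and 34 and 54 in U87. Its ratios were 0.58 and 0.61, with intervals from 0.03 to 1.45 and from 0.08 to 1.39. COMP had at most 4 reads in a library. Among 11 microfibril and latent TGF-beta binding proteins, 6 passed the minimum and none passed 2-fold in either line. Of all genes, 5.44% were more than 2-fold lower and 3.36% higher in U251, and 1.41% and 1.92% in U87. With 6 genes, nothing is read from this count. LTBP3, the most abundant of the 6, had ratios of -0.77 and -0.38. MFAP2, a microfibril protein, had 0 and 3 reads in U251, and 544 and 306 in U87, through which it passed the minimum.

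The CCN proteins are a further matricellular family. CYR61 (CCN1) was the most abundant of them, at 585 FPKM without and 341 with Bru in U251, and 67.6 and 72.8 in U87, with log2 ratios of -0.78 and 0.11. CTGF (CCN2) went from 480 to 175 FPKM in U251 and from 35.6 to 32.5 in U87, with ratios of -1.46 in U251 and -0.13 in U87. NOV (CCN3) went the other way in U251, from 3.34 to 9.29 FPKM (187 and 460 reads), a ratio of 1.45, and had a ratio of -0.17 in U87.

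Protein-coding genes with the most similar pattern were named for FN1, ECM1 and THBS1, by the Euclidean distance over 3 log2 ratios (Bru to Control in each line, and U87 to U251 Control) among 10841 genes. The nearest to FN1 were RARRES3, FAIM2 and MAGED1, at distances of 0.59 to 0.67. MAGED1 went from 15.4 to 4.77 FPKM with Bru in U251 and from 35.0 to 14.9 in U87. The nearest to ECM1 were PXMP2, CHPF and NPIPB15, at distances of 0.15 to 0.22, and the log2 ratios of CHPF were -1.62 and -0.80. The nearest to THBS1 were EEF1A2, PTK7 and MARCKSL1, at distances of 0.86 to 0.95. In U87 Control and Bru, EEF1A2 was at 0.0451 and 0.257 FPKM, PTK7 at 0.00613 and 0.0573 and MARCKSL1 at 0.163 and 0.338, so their U87 ratios rest on very low levels and on the pseudocount. These distances rest on 4 libraries.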

How the data were processed

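RNA of U251 and U87 cells, as Control or after Bru, had been sequenced with 1 library per condition. The authors deposited FPKM per gene with gene lengths. The submitters' processing notes name HISAT2 2.0.5, StringTie 1.3.3b, featureCounts 1.5.0-p3, DESeq2 1.16.1 and the build hg18, with no role given, while the gene coordinates in the files equal those of GENCODE 29 on GRCh38 for 58735 of 58735 genes. The members and gene lists were chosen with earlier results of these data known.

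Each library has 1 step of which the products of FPKM and gene length are whole multiples, which held for 100% of values above 0 (largest deviation 4.35e-05 reads), and gave the reads per gene and the library size. Log2 ratios were computed after adding 0.1 to each FPKM, and genes whose mean FPKM was under 1 were left out. The 95% intervals are exact Clopper-Pearson intervals of the share of reads in 1 of the libraries. The interval of a difference between lines uses a normal approximation of log counts with at least 20 reads per library. With 1 library per condition no p-value was computed. Genes named outside the 10 were those of a list past 2-fold in either line or most abundant in it, and the 3 nearest in pattern. SMOC1, MFAP2, ITGA5, CD36 and the relatives below an FPKM of 1 were named after their values were seen. The scripts (Python 3.11.15, scipy 1.17.1) were tested on simulated data. Alternatives were other pseudocounts, scalings, filters and an assumed variation between replicates.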

Additional observations from a re-analysis of the deposited data

Results flagged for a closer look

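THBS1 was lower with Bru in the U251 library and higher in the U87 library, with log2 ratios of -0.52 and 1.13 and intervals that exclude 0 on opposite sides. It was the 1 gene of the 10 with opposite directions. The difference between conditions was not tested, since each has 1 library, and the U87 value rests on 28 and 78 reads. With an assumed coefficient of variation of 0.2 between replicates the U251 interval held 0 (from -1.32 to 0.28), and with 0.4 the intervals of both lines did.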

How the results depend on the processing

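No paired analysis was possible because each condition has 1 library, and for the same reason no library could be left out. None of the 120 recomputed ratios of the 10 genes changed direction, and 22 of them moved beyond their counting interval. The count of genes more than 2-fold lower in U251 was 6 with a minimum mean FPKM of 5, which leaves out ECM1, and 7 under the other settings. In U87 it went from 2 to 1 with a median log2 ratio of 0, the same 75th percentile or reads without mitochondrial genes, since SPARC came to -0.98, -0.96 and -0.98. The median of the 10 genes in U251 was -1.25 with a pseudocount of 1, -1.27 with the same 75th percentile, -1.28 with reads without mitochondrial genes and -1.26 with a minimum mean FPKM of 5. With an assumed coefficient of variation of 0.4 between replicates, the interval lay below 0 for 4 genes in U251 and 0 in U87, and with 0.2 for 7 in U251 and for 4 in U87 (FN1, ECM1, SPARC and EFEMP1). These coefficients are assumptions, not estimates, and no share of all genes is given for these counts. The share of all genes more than 2-fold lower in U87 ranged from 0.590% among protein-coding genes to 3.07% without a minimum FPKM. With the same 75th percentile the interval of THBS2 in U87 held 0 (from -0.83 to 0.01). THBS1 in U87, at 28 and 78 reads, is the ratio that counting error limits most.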
